A study of Homo sapiens with 12 samples.

Results

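Cells labelled shMOF, for a short hairpin against MOF, were compared with control cells in the condition that the labels call ERα(-). The comparison used 6 of the 12 arrays in the series, chosen by their titles: 3 arrays labelled shMOF and 3 labelled control, all of Ishikawa cells, a human endometrial adenocarcinoma line, and all ERα(-). The other 6 arrays hold the same 2 genotypes as ERα(+), and in this comparison they entered the fit only through the shared estimate of the spread. The labels give no hairpin sequence, no account of what separates ERα(-) from ERα(+) and no origin of the replicates, so the p-values measure the spread between arrays, which may be technical. Each array also carries a code of a letter and a digit: A1, A2 and B1 for control replicates 1 to 3, and B2, C1 and C2 for shMOF replicates 1 to 3. The sources used here do not say what the code stands for. By its title, the series is about mutual regulation of MOF and ERα in cancer of the endometrium.

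MOF, encoded by KAT8, is a histone acetyltransferase that adds acetyl groups to lysine 16 of histone H4 within the MSL complex, and it also acts within the NSL complex at the promoters of many housekeeping genes. ERα, encoded by ESR1, is the oestrogen receptor that drives growth of the endometrial epithelium and induces genes such as GREB1 and PGR. A short hairpin lowers a protein through decay of its mRNA, so an array normally reads the knockdown as less signal from the targeted gene.

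Values are log2 signals after RMA, with array medians from 4.55 to 4.59 over all probe sets. The 14884 named genes had a median level of 5.67. KAT8 read 6.76, 6.87 and 6.68 on the control arrays and 6.78, 6.76 and 6.72 on the arrays labelled shMOF. The groups overlapped, and the log2 difference was -0.02 ± 0.13 (SE; limma adjusted p = 0.993, 95% interval -0.29 to 0.26). The genotype is therefore named here as a label of the arrays. ESR1 read 4.43, 4.12 and 4.28 in control and 4.52, 4.39 and 4.34 in shMOF arrays, again with overlap, a log2 difference of 0.14 ± 0.12 (SE). Of the markers of an epithelial line, 11 of 15 were measured, among them PAX8 at 10.41 to 10.86 on every array, ESRP1 at 8.94 to 9.57 and KRT8 at 5.99 to 6.87. Their median log2 difference was 0.03. Fibroblast markers (7 of 16 measured, median 0.002) and immune and endothelial markers (11 of 19, median 0.05) had no member called. The fibroblast marker DCN stayed between 1.91 and 2.23, near the floor of the arrays. Other members were brighter, with TAGLN at 4.91 to 7.70, FBLN1 at 6.02 to 6.68 and CD68 at 6.36 to 7.70. By level, the mean percentile was 34.6 for fibroblast markers, 32.5 for immune and endothelial markers and 83.7 for epithelial markers.

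No gene passed the test. Limma called 0 of 14884 genes (0%) at an adjusted p below 0.05, with a smallest adjusted p of 0.265, and 711 genes (4.78%) had an unadjusted p below 0.05, against 744.2 expected at that threshold. Of these, 399 (2.68%) were lower and 312 (2.1%) higher in the arrays labelled shMOF. All 3 values of one group lay beyond all 3 of the other for 1304 genes (8.76%), 693 lower (4.66%) and 611 higher (4.11%). For a gene without a difference, the probability of such a separation of 3 arrays from 3 is 0.1. The share measured was below it, so a lack of overlap does not by itself mark a gene. The median log2 difference over all genes was -0.0026, and the 95% interval of a gene reached a median of 0.33 to either side. A difference of at least 2-fold was measured for 6 lower and 4 higher genes. Control replicate 1 held more genes at least 0.5 log2 units beyond all other arrays (293) than any other array (33 to 93), and the number of genes with an unadjusted p below 0.05 moved most without shMOF replicate 2. With array quality weights, which let shMOF replicate 3 count at 8.86 and shMOF replicate 2 at 0.359, limma called 645 genes (4.33%), 336 lower and 309 higher, EGR1 among them (adjusted p = 0.0237). The levels given are descriptions, and every verb of direction refers to measured values of labelled arrays. The 711 genes leaned to the dim end: 64.6% lay below the median level of the genes, and microRNA genes made up 13.5% of them against 7.20% of the genes tested.

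Among the 10 lower genes chosen by p, EGR1 and ATF3 had the largest differences. EGR1, a zinc finger transcription factor induced within minutes of a growth signal, read 7.78, 6.81 and 7.55 on control arrays and 6.03, 6.01 and 6.24 on the arrays labelled shMOF. All 3 shMOF values lay below all 3 control values, with a log2 difference of -1.29 ± 0.28 (SE; limma unadjusted p = 5.2e-04, adjusted p = 0.933). It ran from -1.57 to -1.08 when any of the 6 arrays was left out, and was -1.65 among the arrays whose code ends in 1 and -0.67 among those ending in 2. ATF3, a stress-induced transcription factor, read 7.79, 6.56 and 5.93 in control and 5.82, 5.52 and 5.27 in shMOF arrays. It did not overlap either, at -1.22 ± 0.36, although control replicate 3 lay only a little above shMOF replicate 1. CCN2, a matricellular growth factor, read 5.22, 5.67 and 5.57 against 5.09, 4.79 and 5.05 (-0.51 ± 0.15), and KLF10, induced by TGFβ, read 9.76, 9.22 and 8.82 against 8.90, 8.52 and 8.89 (-0.50 ± 0.20), the latter with overlap. These were the 4 of 25 measured immediate early genes with an unadjusted p below 0.05, all lower (2.68% of all genes were at that threshold and lower). The median of the 25 was -0.14, with 15 below 0, against 50.6% of all genes below 0. It was 0.02 without shMOF replicate 2, the array on which 12 of the 25 read lowest (20.9% of all genes). It was -0.05 without control replicate 1, on which 15 read highest (22.0% of all genes). Without control replicate 1 the difference of ATF3 was -0.71 and that of KLF10 -0.25.

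The promoter of EGR1 is shown because this gene had the smallest p of the bright genes without overlap. The CArG box, the site of serum response factor, is in capitals in the 250 bases before the start (RefSeq, GRCh38.p14, chr5:138465229-138465478, plus strand). It occurs 2 times there, and in 1.16% of 35116 RefSeq windows of the same length, counted on both strands.
EGR1: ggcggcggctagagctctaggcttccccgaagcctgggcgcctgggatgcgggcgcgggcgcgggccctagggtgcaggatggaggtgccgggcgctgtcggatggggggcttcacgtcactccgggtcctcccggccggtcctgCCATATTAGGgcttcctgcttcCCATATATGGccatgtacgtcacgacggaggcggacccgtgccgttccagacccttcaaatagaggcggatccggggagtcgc
Within the immediate early list, 2 of 18 genes with a window (11.1%), EGR1 and SRF, held the box in any of their windows. A match describes the letters only.

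Wnt pathway genes, which carry signals for epithelial renewal, lay on both sides of 0, with 15 of 34 measured members below it. WLS, which escorts Wnt ligands to the cell surface, read 7.15, 6.92 and 6.87 in control and 6.49, 6.61 and 6.38 in shMOF arrays, a log2 difference of -0.49 ± 0.13 (SE). SHISA3, an antagonist that holds back Wnt receptors, read 8.02, 8.40 and 8.11 against 7.03, 7.83 and 7.26, a difference of -0.80 ± 0.24. Both groups of both genes were apart. LEF1, the transcription factor that works with β-catenin, read 3.84, 4.70 and 4.76 against 5.08, 5.03 and 5.28 (0.70 ± 0.26), and AXIN2, a feedback inhibitor and target of the pathway, read 6.14, 6.27 and 6.34 against 6.61, 6.45 and 6.42 (0.24 ± 0.11). Their shMOF values lay above every control value. These 4 were the only ones of the 34 with an unadjusted p below 0.05 (4.78% of all genes), 2 lower and 2 higher. With 1 array left out, 2 to 4 were lower and 0 to 4 higher at that threshold. Of all 14884 genes, 235 to 815 were then lower and 168 to 856 higher. None of the 34 passed the adjusted threshold, and the list's median was 0.03. Without control replicate 1 the difference of LEF1 was 0.40.

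The other lower bright genes without overlap had smaller differences. SOBP, a nuclear protein needed in the inner ear, read 6.65, 6.49 and 6.38 in control and 5.73, 6.16 and 6.02 in shMOF arrays (-0.54 ± 0.13, SE). OSBPL6, a sterol-binding transfer protein, differed by -0.50 ± 0.13 and the zinc finger gene ZNF256 by -0.53 ± 0.14. Genes that were higher included FUOM, a fucose mutarotase, at 6.59, 6.80 and 6.74 against 7.52, 7.12 and 7.10 (0.54 ± 0.13). CLIC6, an intracellular chloride channel protein, read 5.52, 5.12 and 5.57 against 6.14, 5.90 and 6.06 (0.63 ± 0.21). DNM1, a dynamin of membrane fission, differed by 0.60 ± 0.19, the membrane protein gene TMEM14A by 0.35 ± 0.11, the ubiquitin ligase gene TRIM56 by 0.42 ± 0.13 and the junction gene CGNL1 by 0.44 ± 0.13. Each of these 9 genes had a limma adjusted p of 0.953. For DNM1 the nearest values of both groups, 6.75 on control replicate 3 and 6.76 on shMOF replicate 2, all but touched.

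**Figure D1:**
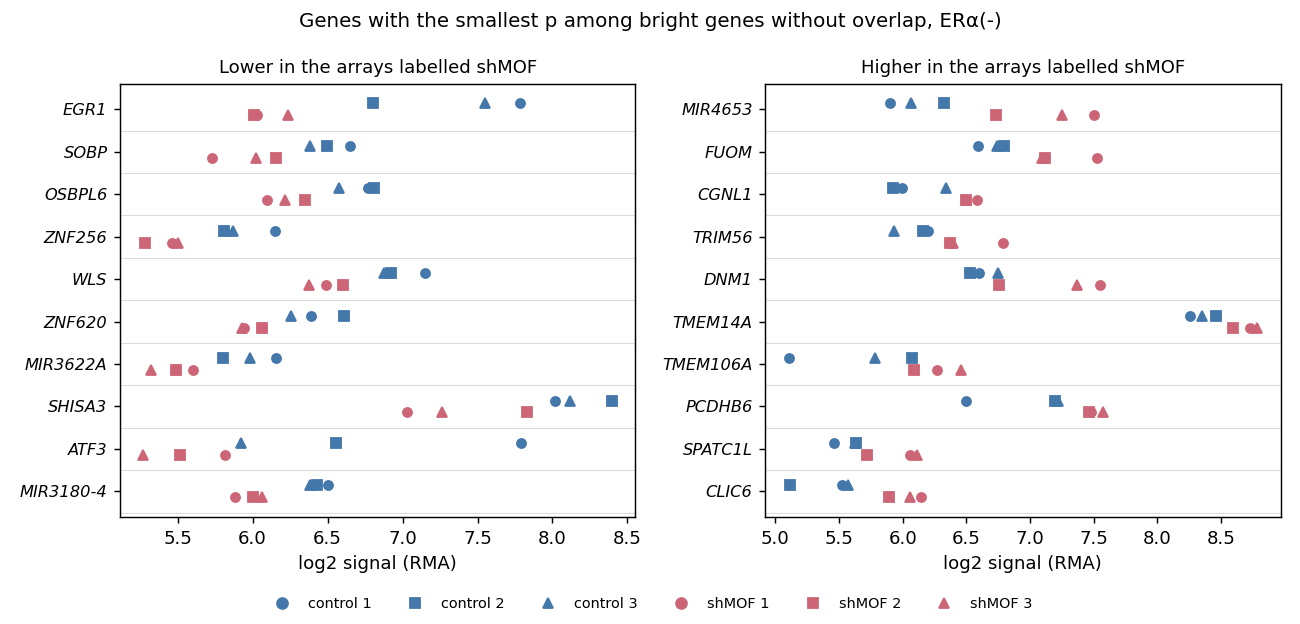
Log2 RMA signal (x axis) of the 10 lower and 10 higher genes with the smallest p among genes at or above the median level whose groups did not overlap, with 1 point per array, control in blue and shMOF in red. EGR1 and ATF3 spread most among the lower genes, and ATF3 owes much of its width to control replicate 1 at 7.79.

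Among the 10 higher genes chosen by p, MIR4653, a microRNA gene, had the largest difference. It read 5.90, 6.33 and 6.06 on control arrays and 7.51, 6.73 and 7.25 on the arrays labelled shMOF, a log2 difference of 1.06 ± 0.25 (SE; limma unadjusted p = 8.3e-04, adjusted p = 0.933). The shMOF values were all higher, and shMOF replicate 2 was the closest to control. Both mature products of this hairpin are shown with the seed, bases 2 to 8, in capitals (RefSeq, GRCh38.p14, plus strand, chr7:101159482-101159503 and chr7:101159524-101159546). The 2 seeds differ. The signal is that of a probe set assigned to the gene, and the level of either mature product is not known from it.
hsa-miR-4653-5p: uCUCUGAGcaaggcuuaacacc
hsa-miR-4653-3p: uGGAGUUAaggguugcuuggaga

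Interferon response genes, which cells induce on sensing viral RNA or interferon, were mostly lower, but on 2 of the 3 arrays labelled shMOF. IFIT3, which holds back translation of foreign RNA together with IFIT1, read 5.01, 5.26 and 5.42 in control and 4.61, 5.03 and 4.56 in shMOF arrays (-0.50 ± 0.16, SE). IFIH1, the sensor of long double-stranded RNA, read 5.82, 5.60 and 5.41 against 4.66, 5.50 and 4.76 (-0.64 ± 0.24). In both genes shMOF replicate 2 lay inside the control range and replicates 1 and 3 below it. RSAD2, an antiviral enzyme, was lower on all 3, at 5.95, 5.54 and 5.51 against 5.07, 5.36 and 4.84 (-0.58 ± 0.21), and IFIT2 differed by -0.69 ± 0.26. Of 26 measured members, 21 were below 0 and 8 had an unadjusted p below 0.05 in the lower direction (2.68% over all genes), none in the higher one and none after adjustment. The list's median was -0.20, and -0.08 among arrays whose code ends in 1 against -0.23 among those ending in 2. As deviations from the mean of the 6 arrays, the list's median was -0.20 on shMOF replicate 1, 0.04 on replicate 2 and -0.26 on replicate 3, and 0.24, 0.10 and 0.02 on the control arrays. The count of 8 became 1 without control replicate 1 (235 of 14884 genes were then at that threshold and lower; 3.33% in either direction), and 1 without shMOF replicate 3 (2.92% in either direction). It became 3 without shMOF replicate 1 (3.82%) and 10 without shMOF replicate 2 (11.2%).

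The promoters of IFIT3 and IFIH1 are shown because these genes follow the same 2 arrays. The core of the interferon-stimulated response element, GAAA, any 2 bases and GAAA again, searched on both strands, is in capitals in the 250 bases before each start (RefSeq, GRCh38.p14, chr10:89327747-89327996, plus strand, and chr2:162318685-162318934, minus strand). Overlapping matches run together in the IFIH1 window.
IFIT3: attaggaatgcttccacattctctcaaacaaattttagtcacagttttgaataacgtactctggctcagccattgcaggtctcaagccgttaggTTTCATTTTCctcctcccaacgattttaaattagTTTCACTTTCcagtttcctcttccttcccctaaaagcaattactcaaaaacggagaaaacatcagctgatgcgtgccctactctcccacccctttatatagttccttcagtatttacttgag
IFIH1: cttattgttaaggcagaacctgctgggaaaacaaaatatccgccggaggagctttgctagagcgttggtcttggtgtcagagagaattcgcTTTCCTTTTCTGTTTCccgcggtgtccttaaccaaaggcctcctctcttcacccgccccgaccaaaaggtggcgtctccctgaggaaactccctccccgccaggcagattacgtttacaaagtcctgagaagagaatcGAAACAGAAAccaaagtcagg
The core was found for 13 of 21 list members with a RefSeq window (61.9%) and in 3.02% of all 35116 windows. A gene with several windows counted when any of them held it.

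Of 14 measured genes of NF-kB signalling and its cytokines, 11 were below 0. CCL2, a monocyte chemokine, read 2.71, 3.02 and 3.15 in control and 2.37, 2.46 and 2.52 in shMOF arrays (-0.51 ± 0.19, SE), and CCL5, a T cell chemokine, read 6.10, 5.93 and 5.68 against 5.46, 5.64 and 5.51 (-0.37 ± 0.16). Neither overlapped, and CCL2 was near the floor. The list's median was -0.22. It was -0.11 without control replicate 1 and -0.12 without shMOF replicate 2. At an unadjusted p below 0.05, 4 members were lower (2.68% of all genes), and 1 to 6 with 1 array left out. Of all 14884 genes, 235 to 815 were lower at that threshold with 1 array left out. The count of members was 1 without control replicate 1 (235 of all genes), without control replicate 2 (474) and without shMOF replicate 3 (266). The groups did not overlap for 2 lower members (4.66% of all genes) and 1 higher (4.11%).

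Control replicate 1 stood apart from the other 5 arrays. On it 185 genes read at least 0.5 log2 units above all other ERα(-) arrays and 108 at least 0.5 below, where the other arrays had 13 to 40 genes above and 20 to 54 below. At a gap of 1 log2 unit it had 43 genes above and 7 below. The 4 genes farthest above the other arrays were DDIT3, STC2, ANKRD37 and BNIP3. DDIT3, which encodes the stress factor CHOP, read 8.26 on this array and 5.34 to 5.70 on the others. STC2, a secreted glycoprotein induced by stress, read 10.27 against at most 7.72, ANKRD37, a target of hypoxia-inducible factor, read 8.07 against at most 5.60, and BNIP3, a mitophagy receptor, read 11.60 against at most 9.23. Of 22 measured hypoxia and glycolysis genes, 17 were highest on this array, and of 20 genes of the unfolded protein and ATF4 response, 15 were, against 22.0% of all genes. It was also the highest array for 15 of 25 immediate early genes, 12 of 26 interferon response genes and 8 of 14 NF-kB and cytokine genes. For hypoxia and the unfolded protein response the list medians as deviations were 1.0 and 0.55 there, and below 0 on each of the other arrays. The mean behind these deviations includes control replicate 1, and its high values push those of the other arrays below 0.

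**Figure D2:**
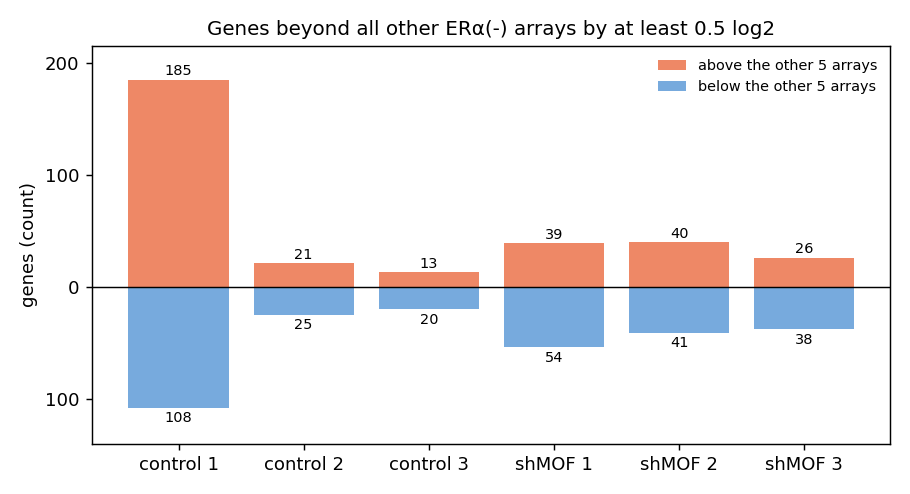
Number of genes (y axis, counts above and below 0) that read at least 0.5 log2 units above or below all other ERα(-) arrays, for each of the 6 arrays. Control replicate 1 has 185 genes above and 108 below, and no other array has more than 40 above or 54 below.

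The same array was lowest for chaperone genes. HSPA1A, an inducible cytosolic chaperone, read 7.76 there against 9.13 to 9.84 on the other arrays, and HSPH1, its exchange factor, read 6.60 against 7.85 to 8.07. HSPA1B, a near-identical copy of HSPA1A whose signal cannot be assigned with certainty, read 8.77 against 10.15 to 10.68. In the heat shock list, 7 of 10 measured members were lowest on this array, as were 18.9% of all genes. BAG3, a co-chaperone, read 7.31, 8.40 and 8.28 in control and 9.07, 8.38 and 8.87 in shMOF arrays (0.77 ± 0.26, SE). Its difference was 0.43 without this array. The list's median log2 difference between the groups was 0.30 with this array and -0.04 without it. That of hypoxia and glycolysis was -0.31 with it and 0.13 without it, and that of the unfolded protein and ATF4 response was -0.18 with it and 0.09 without it. No hypoxia gene and 1 unfolded protein gene, ATF3, had an unadjusted p below 0.05 over all arrays. Cell cycle genes were lowest on the same array for 17 of 40 members. KIF20A, a mitotic kinesin, read 8.51, 9.38 and 9.37 in control and 9.54, 9.55 and 9.54 in shMOF arrays (0.46 ± 0.19), and the list's median was 0.05, with 12 of 40 below 0. Without this array the difference of KIF20A was 0.17 and the list's median 0.0055, with 19 of 40 below 0.

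The promoters of ANKRD37 and BNIP3 are shown as examples of the genes that read high on control replicate 1. The core of the hypoxia response element, ACGTG searched on both strands, is in capitals in the 250 bases before each start (RefSeq, GRCh38.p14, chr4:185396591-185396840, plus strand, and chr10:131981924-131982173, minus strand).
ANKRD37: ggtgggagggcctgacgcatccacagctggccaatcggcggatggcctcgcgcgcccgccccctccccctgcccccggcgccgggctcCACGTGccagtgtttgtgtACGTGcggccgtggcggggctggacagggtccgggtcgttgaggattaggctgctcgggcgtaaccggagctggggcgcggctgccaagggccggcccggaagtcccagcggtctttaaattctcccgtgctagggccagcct
BNIP3: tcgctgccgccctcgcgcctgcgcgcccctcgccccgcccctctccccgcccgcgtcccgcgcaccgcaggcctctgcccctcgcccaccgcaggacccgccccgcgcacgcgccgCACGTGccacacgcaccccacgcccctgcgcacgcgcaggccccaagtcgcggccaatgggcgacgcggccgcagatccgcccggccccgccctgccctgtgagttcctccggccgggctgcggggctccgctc
This short core was found for 13 of 19 list members with a window (68.4%), counting a gene when any of its windows held it. It was in 18.5% of all windows counted singly, so the shares are of unlike units.

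A second set of genes separated shMOF replicate 2 from shMOF replicates 1 and 3. FN1, the fibronectin of the extracellular matrix, read 6.51, 6.60 and 6.38 in control arrays and 8.34, 6.14 and 8.34 in shMOF arrays. On replicate 2 it lay below every control value, and the group difference was 1.11 ± 0.48 (SE). IGF2BP1, an oncofetal RNA-binding protein, read 7.14, 8.05 and 7.15 against 5.57, 7.22 and 5.34 (-1.40 ± 0.57). LCN2, a secreted siderophore-binding protein of inflamed epithelium, read 7.11, 7.24 and 7.56 against 8.74, 6.96 and 8.47 (0.75 ± 0.33). G0S2, an inhibitor of triglyceride lipase, read 7.54, 8.40 and 7.83 against 9.61, 7.40 and 9.50 (0.91 ± 0.44). In these genes replicates 1 and 3 were alike and replicate 2 lay nearer to the control arrays. Without replicate 2 the log2 difference of FN1 was 1.84 and that of IGF2BP1 -1.99.

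Without shMOF replicate 2, limma called 5 genes (0.0336% of those tested), all higher in the arrays labelled shMOF. They were the metallothionein-like gene MT1L (log2 difference 1.85), LCN2 (1.30), the cytidine deaminase gene CDA (1.19), MIR548J (1.02), each at an adjusted p of 0.0157, and G0S2 (1.63, adjusted p = 0.0257). With all arrays their differences were 1.01, 0.75, 0.73, 0.72 and 0.91 in that order. CDA read 5.78, 6.02 and 5.76 in control and 7.20, 5.67 and 6.89 in shMOF arrays, and MT1L read 3.87, 4.69 and 3.96 against 6.26, 3.50 and 5.77. Both were lowest on shMOF replicate 2. MIR548J was dim, at 2.81, 3.00 and 3.09 against 3.93, 3.08 and 4.04, where the median level of the genes was 5.67. The number of genes at an unadjusted p below 0.05 was 1671 (11.2%) without that array and from 434 to 914 without any other of the 6. Both shMOF arrays left, B2 and C2, have a code ending in 2, as has only control replicate 2. Genotype label and digit are therefore hard to tell apart in this fit. Among codes ending in 1, where shMOF replicate 2 is the only shMOF array, MT1L differed by -0.42, LCN2 by -0.37 and CDA by -0.10. There G0S2 differed by -0.28 and MIR548J by 0.13.

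**Figure D3:**
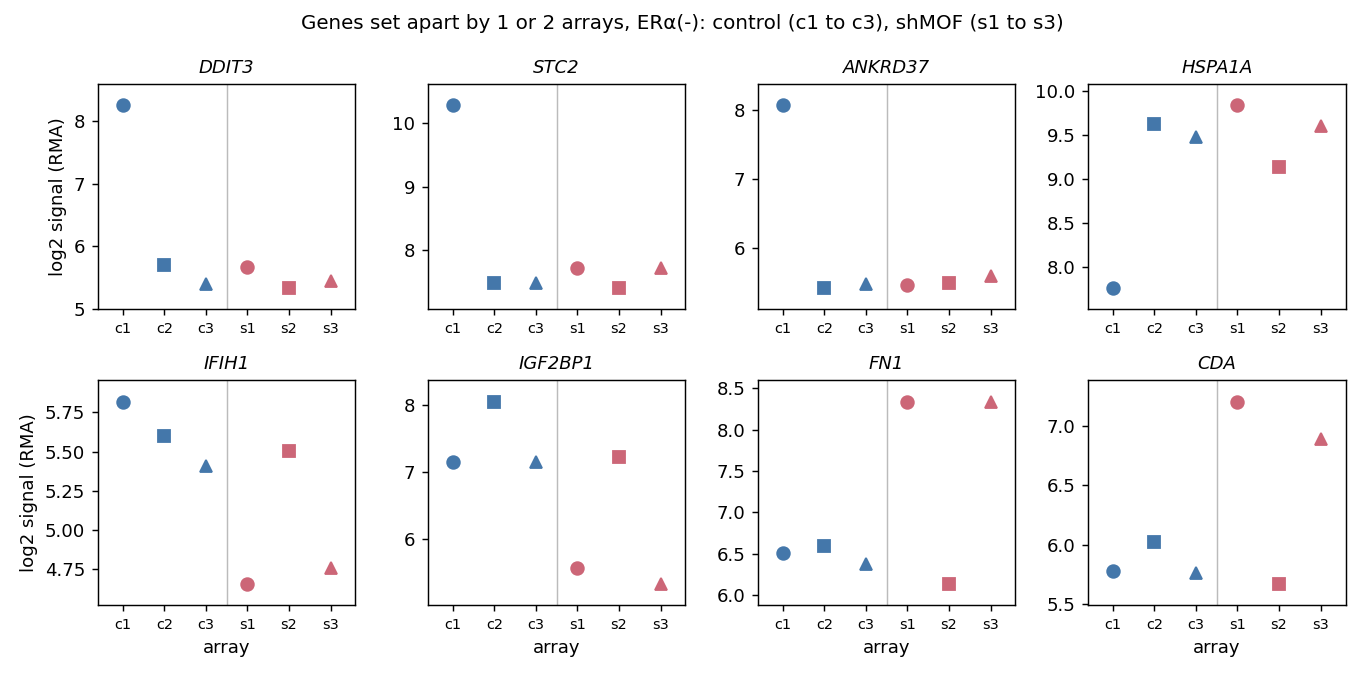
Log2 RMA signal (y axis) of 8 genes on each array (x axis; c1 to c3 control in blue, s1 to s3 shMOF in red). DDIT3, STC2 and ANKRD37 are high and HSPA1A is low on control replicate 1 alone, while IFIH1, IGF2BP1, FN1 and CDA set shMOF replicates 1 and 3 apart from shMOF replicate 2.

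Among the arrays labelled shMOF, the digit of the sample code followed this division. Over all 6 arrays the digits were apart for FN1, G0S2 and CDA. They overlapped for IGF2BP1 and LCN2, which read 8.05 and 7.24 on control replicate 2. On the ERα(+) control arrays FN1 read 7.53 and 8.27 with digit 1 and 8.16 with digit 2, and CDA 6.85 and 7.12 against 7.04. G0S2 read 9.30 and 9.62 against 9.80. None was called for the digit in a limma fit over all 12 arrays. The adjusted p was 0.69 for FN1, 0.20 for G0S2, 0.59 for CDA, 0.62 for IGF2BP1 and 0.86 for LCN2. Control replicates 1 and 3 and shMOF replicate 2 carry the digit 1, and control replicate 2 and shMOF replicates 1 and 3 the digit 2. The first principal component of the 6 arrays, with 38.4% of the variance, was -11.2, -11.6 and -18.5 on the former and 0.31, 26.7 and 14.2 on the latter. All values of the digits were apart for 3215 genes (21.6%), against 1304 (8.76%) for the genotype labels. The probability for a gene without a difference is 0.1 in both cases. Of the genes lower on digit 2 without overlap, 14.6% also read lowest of the ERα(+) arrays on the only array there with digit 2. That share was 13.1% over all genes. Of the genes higher on digit 2 without overlap, 19.5% read highest on that array, against 12.7% of all genes. The digit was looked at after the arrays had been seen, and its part in any difference of the genotype was not tested beyond the fit with both.

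Cholesterol synthesis genes, which sterol-sensing transcription factors turn on when membrane sterol is low, followed the digit and not the genotype label. INSIG1, the sterol-regulated anchor of that sensor, read 10.32, 9.56 and 10.18 on the arrays with digit 1 and 8.39, 8.76 and 8.59 on those with digit 2. HMGCS1, which makes the substrate of the rate-limiting step, read 9.08, 9.43 and 9.76 against 7.83, 8.23 and 8.25. SCD, the desaturase that makes monounsaturated fatty acids and which lies outside the list, read 11.50, 11.28 and 11.51 against 9.80, 10.44 and 10.48. The digits did not overlap in any of these genes. Between the genotypes, the list's median log2 difference was 0.006 over 16 measured members, with 0 at an unadjusted p below 0.05.

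In the fit with the genotype groups and the digit over all 12 arrays, limma called 18 genes for the digit (0.121% of 14884), 12 lower on digit 2 (0.0806%) and 6 higher (0.0403%). Of the 16 cholesterol genes, 6 were called lower on digit 2: INSIG1 (log2 difference -1.61 ± 0.17, SE; adjusted p = 0.00298), HMGCS1 (-1.49 ± 0.16), MSMO1 (-1.11 ± 0.13), STARD4 (-1.11 ± 0.17), IDI1 (-0.83 ± 0.13) and SQLE (-0.79 ± 0.13), the last at an adjusted p of 0.0312. Among genes outside the list, SCD was lower by -1.55 ± 0.20 and FADS2, a fatty acid desaturase, by -1.22 ± 0.19. CD44, a hyaluronan receptor, was higher by 1.25 ± 0.14 and EMP1, an epithelial membrane protein, by 1.75 ± 0.20. Over the 6 ERα(-) arrays alone, 11 of the 16 cholesterol genes were lower on digit 2 without overlap (8.97% of all genes), and 0 were higher. Only 1 of the ERα(+) arrays, control replicate 2, carries the digit 2, and it read lowest of those 6 for 8 of the 16 genes, where 13.1% of all genes read lowest on it. On that array INSIG1 read 7.83 and HMGCS1 7.55, against 9.0 to 9.61 and 8.21 to 9.14 on the other ERα(+) arrays.

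**Figure D4:**
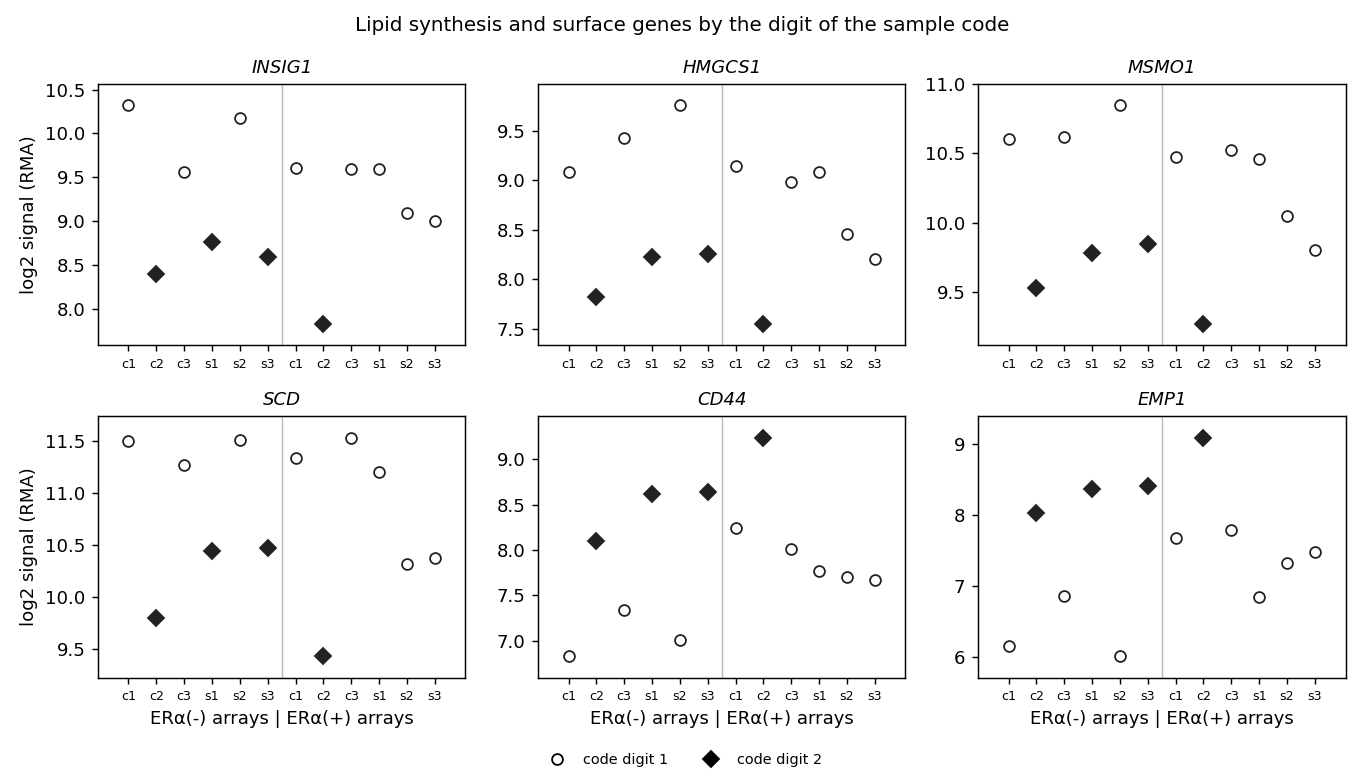
Log2 RMA signal (y axis) of 6 genes on all 12 arrays (x axis; c control, s shMOF, ERα(-) left and ERα(+) right of the line), with filled diamonds for code digit 2 and open circles for digit 1. INSIG1, HMGCS1, MSMO1 and SCD are lower, and CD44 and EMP1 higher, on the 4 arrays with digit 2 than on the digit 1 arrays of the same ERα label.

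With the digit in the fit, 0 genes were called for the genotype label and 577 (3.88%) had an unadjusted p below 0.05, of which 458 were among the 711. EGR1 differed by -1.15, ATF3 by -1.15, WLS by -0.46 and MIR4653 by 1.02, and the interferon median was -0.18. The differences of MT1L and G0S2 became 0.61 and 0.56, against 1.01 and 0.91 without the digit. Within the digits, the genotype difference of FN1 was -0.30 on digit 1 and 1.74 on digit 2, that of IGF2BP1 was 0.07 and -2.59, and the hypoxia median was -0.63 and 0.20. Each of these within-digit values compares 1 array with 2. Over all genes, the sign of the genotype difference was shared by both digits for 42.8%, so most genes did not share it.

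The median of the MOF complexes was close to 0. Of 13 members 12 were measured, with a median log2 difference of 0.04 and none called. PHF20, a reader of the NSL complex, read 6.56, 6.52 and 6.36 in control and 5.98, 6.21 and 6.38 in shMOF arrays (-0.29 ± 0.13, SE), and MSL2, the ubiquitin ligase of the MSL complex, read 8.51, 8.15 and 8.31 against 7.97, 8.15 and 8.08 (-0.26 ± 0.12). These were the 2 members with an unadjusted p below 0.05, both lower (2.68% of all genes). Among other acetyltransferases and deacetylases (24 measured, median 0.003), HDAC6, the tubulin deacetylase, read 5.84, 6.14 and 6.25 against 6.72, 6.39 and 6.44 without overlap (0.44 ± 0.15).

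Oestrogen readouts were spread about 0. Oestrogen-induced genes had a median of 0.02 over 30 measured members, 17 of them above 0 (49.4% of all genes). GREB1, a classical target of the receptor, read 5.35, 5.33 and 5.15 in control and 4.73, 5.11 and 5.05 in shMOF arrays (-0.31 ± 0.13, SE), while TSKU, a secreted proteoglycan, read 7.36, 7.82 and 7.47 against 8.41, 7.59 and 8.21 (0.52 ± 0.21). The former did not overlap and the latter did. The receptor and its co-regulators had a median of -0.008 over 14 members. Endometrial epithelial genes had a median of 0.06 over 18 members, with EMX2, a homeobox factor of the uterus, at 7.64, 7.93 and 7.97 against 8.32, 8.15 and 8.19 (0.38 ± 0.14). LGR5, a receptor of the Wnt pathway and stem cell marker, read 7.60, 6.48 and 7.28 in control and 5.26, 7.84 and 5.78 in shMOF arrays. It was highest on shMOF replicate 2. Its difference was -0.82 ± 0.51 (SE), and -1.60 without that array. Without that array the list's median was 0.15, with 5 members higher and 2 lower at an unadjusted p below 0.05 (11.2% of all genes in either direction), against 1 higher and 0 lower with it.

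The remaining lists had no member called and medians close to 0. These were p53 targets (12 measured, -0.02), DNA repair (18, -0.06), apoptosis (16, -0.04), autophagy and lysosome (25, -0.06), the insulin-like growth factor axis (17, -0.005) and endometrial cancer drivers (13, -0.003). ATG16L1, which places the autophagy conjugation machinery on membranes, was the autophagy gene with the smallest p, at 0.43 ± 0.16 (SE). Oxidative phosphorylation (12, 0.12), epithelial-mesenchymal transition (13, 0.10) and ribosomal proteins (29, 0.06) had medians above 0. Without shMOF replicate 2 the median of epithelial-mesenchymal transition was 0.21, with 4 members higher at an unadjusted p below 0.05 against 1 with it. Over all 14884 genes that count also rose, to 856 higher without this array from 312 with it. Without shMOF replicate 1 the median of ribosomal proteins was 0.011. Ribosomal protein genes read highest on shMOF replicate 1 in 20 of 29 cases, and 17 of 23 small nucleolar and Cajal body RNA genes and all 4 vault RNA genes were also highest on that array, as were 24.6% of all genes.

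**Figure D5:**
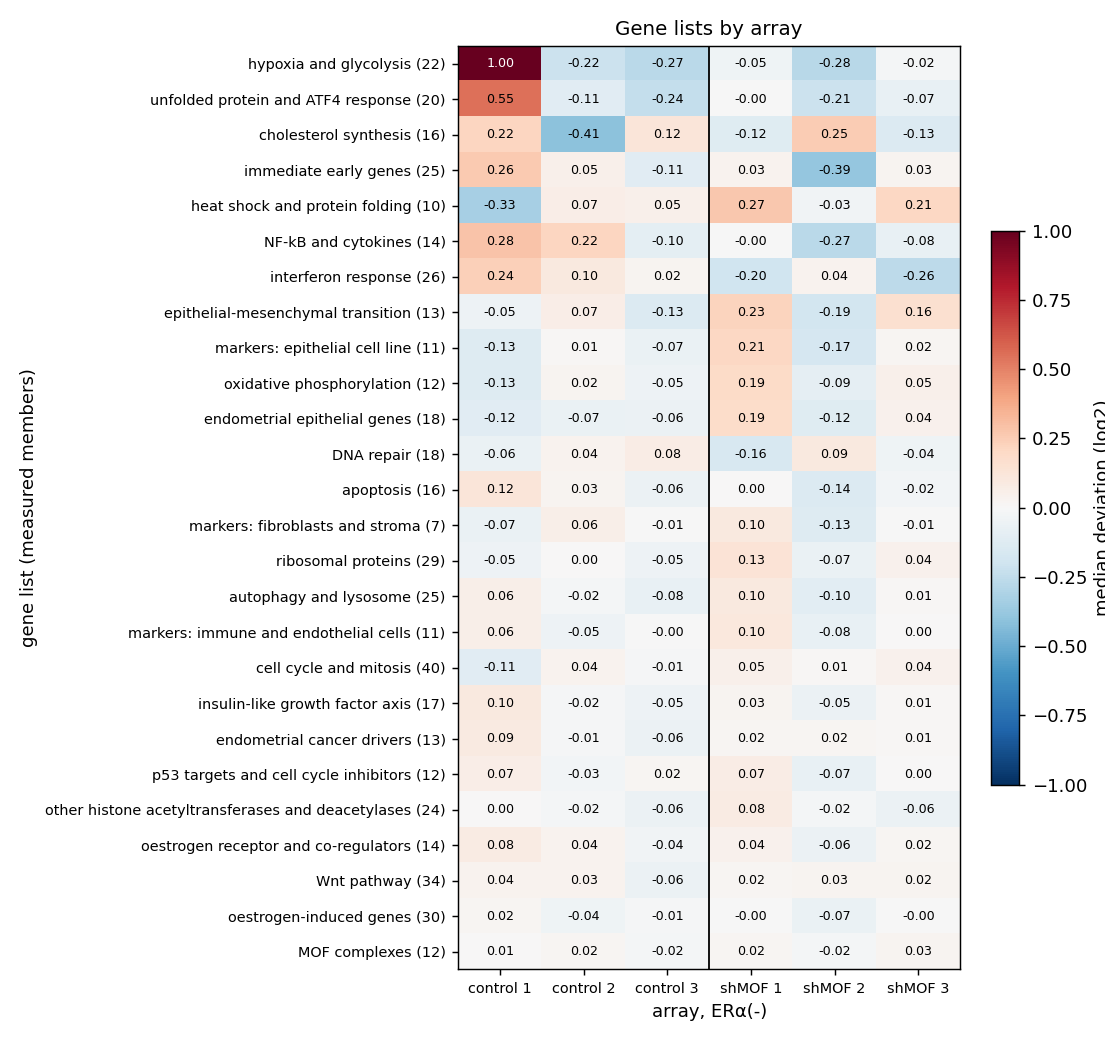
Median deviation of each gene list from the mean of the 6 ERα(-) arrays (colour and printed value, log2; rows are lists with the number of measured members, columns are arrays). Control replicate 1 is at 1.0 for hypoxia and glycolysis and 0.55 for the unfolded protein and ATF4 response, and control replicate 2 at -0.41 for cholesterol synthesis.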

How the data were processed

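Trizol extracts of total RNA were biotin-labelled and hybridised to 12 arrays (labels' protocols). The authors deposited log2 values. Per the submitters' processing notes, these came from RMA in Affymetrix Expression Console 1.4.1, which corrects background, equalises the distributions of the arrays and summarises probes, and can compress differences of dim genes. The probe sets' genome build is not given in the sources used here. Of 53617 probe sets, 16098 had 1 gene symbol, 0 had several and 37519 were unnamed here. The brightest probe set over the 12 arrays stood for each of 14884 genes. There was no filter on dim genes, and the number of arrays limits the precision.

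Group means over all 12 arrays were fitted by lmFit and eBayes (limma 3.58.1, R 4.3.3; two-sided tests; degrees of freedom 8 residual, 5.60 prior) and adjusted by Benjamini-Hochberg over all genes. The smallest exact two-sided p for 3 arrays against 3 is 0.1. The script was tested on simulated data. Of 27 gene lists, 26 had at least 3 measured members. The members and lists were chosen with earlier results of these data known, and the digit of the sample code, the families of small RNA genes and the joint removal of 2 arrays were looked at after the data were seen. Named are KAT8 and ESR1, the 10 genes per direction with the smallest p among those without overlap at or above the median level, up to 4 genes per list, 4 per array and side, and genes called when 1 array is left out. DCN, EMP1, FADS2, MSMO1, IDI1, SQLE, INSIG1, HMGCS1 and SRF were named after their values were seen. Promoters and microRNAs are from RefSeq tables (GRCh38.p14).

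Replicate numbers recur across groups, but same-numbered arrays did not deviate together, with correlations of 0.048, -0.179 and -0.080 across genes, so the numbers were not used as pairs.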

Additional observations from a re-analysis of the deposited data

How the results depend on the processing

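Limma called 0 genes under each alternative but 2: leaving out shMOF replicate 2 (5 genes) and array quality weights (645 genes, 3813 at an unadjusted p below 0.05). The weights gave shMOF replicate 3 a weight of 8.86 and shMOF replicate 2 a weight of 0.359, and 269 of the 645 had groups that did not overlap. The replicate number as a block gave 0 calls and 794 genes at an unadjusted p below 0.05, and the code letter as a random block 0 and 870. Leaving out 1 array at a time gave 0 to 5 calls, 434 to 1671 genes at an unadjusted p below 0.05 and 2098 to 4932 without overlap, where fewer arrays make overlap rarer. Without dim genes 834 did not overlap, and at a fold of at least 1.5 the counts were 107 and 58. Without both control replicate 1 and shMOF replicate 2, chosen after the data were seen, 1352 genes had an unadjusted p below 0.05 and 7207 did not overlap. The cause of these shifts was not tested.

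With 1 array left out, log2 differences ran from -0.061 to 0.034 for KAT8, and list medians from -0.049 to 0.052 for the MOF complexes, -0.051 to 0.071 for Wnt, -0.058 to 0.054 for autophagy, -0.041 to 0.39 for heat shock, -0.039 to 0.085 for the insulin-like growth factor axis, -0.097 to 0.072 for fibroblast markers, -0.065 to 0.016 for oestrogen co-regulators, -0.026 to 0.060 for oestrogen-induced genes and -0.097 to 0.056 for p53 targets. The heat shock median was 0.53 over every named probe set. Weights moved the medians of MOF complexes to 0.0047, p53 targets to 0.042, autophagy to 0.040 and immune markers to -0.044. Without both arrays they were -0.030 for MOF complexes, 0.11 for p53 targets, 0.0013 for NF-kB, 0.079 for immediate early genes, -0.17 for DNA repair, 0.068 for apoptosis, 0.090 for autophagy and 0.084 for the insulin-like growth factor axis. With 3 arrays a group, a difference smaller than about 0.33 log2 units lies inside the median 95% interval.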
